A study of Homo sapiens with 15 samples.

Results

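HepG2 cells given hairpins against BRG1 and BRM were compared with parallel HepG2 cells given the BRM hairpin without the BRG1 hairpin. The libraries were chosen by their column labels in the deposited count table, as the 4 from cells given both hairpins (Double) and the 3 from cells given the BRM hairpin (BRM), 7 of the 15 libraries of the series. All 35012 genes of the table were considered and 14621 passed the filter on low counts. BRG1 (SMARCA4) and BRM (SMARCA2) are the alternative motor subunits of the SWI/SNF complexes, which use ATP to slide or evict nucleosomes and so open enhancers and promoters to transcription factors. A complex carries either motor, so depletion of both is meant to lower all remodelling ATPase of this family. Cells depleted of BRM alone can still form BRG1 complexes. Only RNA was measured here, so the amount of protein left is not known. In the liver lineage, SWI/SNF complexes work at enhancers bound by hepatocyte transcription factors, and genes for plasma proteins and liver metabolism are among their known targets.

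HepG2 is an established human liver cancer cell line, here from ATCC, that still makes many hepatocyte proteins. Every group was transduced with lentivirus in 8 µg/mL polybrene, selected with puromycin and harvested at day 5. The BRM group carried the BRM hairpin (shBrm), the Double group the BRG1 and BRM hairpins (shBRG1 + shBRM), the NS group a non-silencing hairpin (shNS, 4 libraries) and the BRG1 group the BRG1 hairpin (shBrg1, 4 libraries). The groups share the line, the vector type and the selection, and no unselected parental cells were analysed here. The labels do not say whether cells with a single hairpin also received a control virus, so the BRG1 hairpin and the addition of a second virus cannot be told apart in Double against BRM. They also do not say that replicates were separate cultures, so p-values measure the spread between these libraries, which may be technical. NS and BRG1 are used below to give the levels with BRM present and the effect of BRG1 depletion there.

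Total estimated counts were 12550787 to 26998203 in BRM and 13885573 to 27187991 in Double. The libraries fell into a set with the numbers 1 and 2 and a set with 3 and 4. Mitochondrially encoded transcripts made up 4.97 to 8.33% of counts in the former and 1.79 to 3.46% in the latter, and each group holds both kinds: 8.05, 4.97 and 3.07% in BRM and 6.65, 8.33, 3.46 and 1.79% in Double. What libraries of the same number have in common is not stated in the labels. On the first principal component of the 7 libraries (47.3% of variance) all Double libraries lay on one side and all BRM libraries on the other. The second component (32.4%) followed the numbers, with BRM 2 between the sets. For that reason counts, list medians and the values of leading genes are also given within libraries 1 and 2 (2 against 2) and within libraries 3 and 4, where the BRM group has 1 library. In the latter the lone BRM library is assumed to vary like the other groups, so a call there carries no BRM replicate. Levels are given in CPM, read counts normalised to the TMM-scaled library total, and are listed in library order. Fold changes are log2(Double/BRM) with the standard error. A gene is called when edgeR's quasi-likelihood test gives a Benjamini-Hochberg adjusted p under 0.05 over all genes tested.

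Hepatocyte markers were present in both groups, some of them at lower levels in Double. In bulk libraries fewer cells of a type and less RNA per cell cannot be told apart. ALB, encoding serum albumin, stood at 17437, 19265 and 13879 CPM in the BRM libraries and 2568, 2437, 1384 and 2451 CPM in the Double libraries. Every Double library was below every BRM library (−2.93 ± 0.48, adjusted p = 0.000617). The level in cells with BRM present was 7407 ± 1137 CPM in NS and 1962 ± 1382 CPM in BRG1 (mean ± SD, n = 4 each, as for NS and BRG1 values below). SERPINA1, which encodes alpha-1-antitrypsin, stood at 5613, 6932 and 8821 CPM in the BRM libraries and 6232, 7042, 4000.5 and 8119 CPM in the Double libraries. Its groups overlapped and it was not called (−0.17 ± 0.32, adjusted p = 0.781). HNF4A, a core hepatocyte transcription factor, likewise overlapped, at 293, 407 and 456 CPM in the BRM libraries and 262, 251, 229 and 428 CPM in the Double libraries (−0.40 ± 0.29, adjusted p = 0.395). Defining markers of fibroblasts (LUM, POSTN), endothelium (KDR, TEK), T cells (CD3E), erythroid cells (HBB) and neurons (NEFL, NEFM, STMN2) were at 0 in all 7 libraries. Other markers on the same lists were present. ACTA2, smooth muscle actin, ranged over 109.8 to 188 CPM in BRM and 63.5 to 103 CPM in Double, and COL1A1, a fibrillar collagen chain, over 11.5 to 18.6 CPM in BRM and 10.2 to 34.01 CPM in Double. TUBB3, a tubulin of neurons, ranged over 141 to 490.2 CPM in BRM and 301 to 681 CPM in Double. CD68, a marker of macrophages, ranged over 54.3 to 74.3 CPM in BRM and 51.8 to 93.2 CPM in Double, and HBA1, an alpha globin, over 2.66 to 4.89 CPM in BRM and 0.742 to 1.404 CPM in Double. None of these but HBA1 was called.

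The targeted genes came first as a check of the labels. SMARCA4 (chromosome 19, 10960825 to 11079426, plus strand, GRCh38 with GENCODE 29, as for all gene positions here) stood at 281, 312 and 444 CPM in the BRM libraries and 43.3, 52, 39.1 and 50.5 CPM in the Double libraries. All 4 Double libraries were below all 3 BRM libraries, and the fold change was −2.905 ± 0.18, adjusted p = 1.07e-06 (−2.64 within libraries 1 and 2 and −3.28 within libraries 3 and 4). The level was 307 ± 6.99 CPM in NS and 27.8 ± 2.32 CPM in BRG1. All Double libraries were above the BRG1 mean. The interaction, which tests the difference between the effect with BRM depleted and with BRM present, was 0.56 ± 0.23, adjusted p = 0.339. SMARCA2 (chromosome 9, 1980290 to 2193624, plus strand) stood at 6.85, 2.55 and 3.73 CPM in the BRM libraries and 2.79, 2.23, 2.84 and 2.403 CPM in the Double libraries, against 39.2 ± 4.05 CPM in NS and 25.8 ± 3.64 CPM in BRG1. It was low in all 7 libraries. BRM 2 lay within the Double range and BRM 1 and 3 above it, and the difference was not called (−0.74 ± 0.26, adjusted p = 0.0634). The part of this difference in residual BRM in the results below was not tested.

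**Figure D1:**
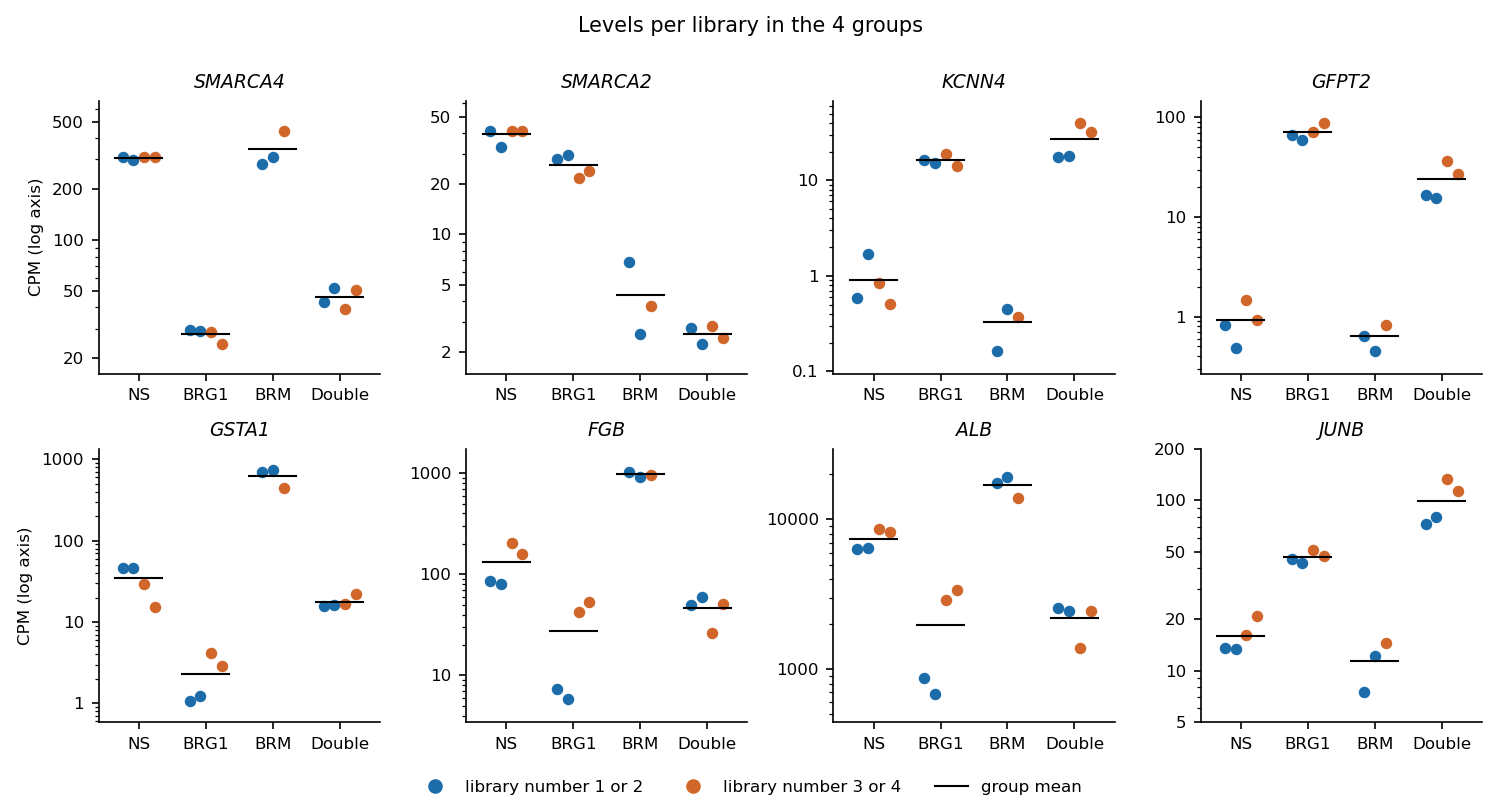
CPM (logarithmic axis) in every library of the NS, BRG1, BRM and Double groups for SMARCA4, SMARCA2, KCNN4, GFPT2, GSTA1, FGB, ALB and JUNB; blue points are libraries 1 and 2, orange points libraries 3 and 4, and the line is the group mean. SMARCA4 falls from 281 to 444 CPM in BRM to 39.1 to 52.0 CPM in Double, and GSTA1 from 446 to 749 CPM to 15.7 to 21.9 CPM.

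Cells with both hairpins had similar numbers of genes above and below cells with the BRM hairpin alone. Of 14621 genes tested, 1363 (9.32%) were called higher in Double than in BRM and 1424 (9.74%) lower, and 828 and 939 of these differed at least 2-fold. These percentages are the background against which counts of any gene group below are read. Every Double library exceeded every BRM library at 1891 genes (12.9%) and lay below them all at 2091 (14.3%). Of the called genes, 1287 of the higher and 1358 of the lower ones had groups that did not overlap. Within libraries 1 and 2, 4507 genes were called and 2546 of the 2787 main calls were among them in the same direction. These libraries are part of the main fit, so this overlap is not separate support.

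The 15 largest changes each way were picked among called genes whose groups did not overlap and whose sign was the same in both sets. Both traits were therefore fixed by the choice and are not results at these genes. The 15 largest increases came mostly from low levels with BRM depleted alone, under 1 CPM in every BRM library at 11 of them. Ranking by Double against BRM favours such low BRM levels. KCNN4, a calcium-activated potassium channel (chromosome 19, 43766533 to 43781261, minus strand), stood at 0.161, 0.45 and 0.369 CPM in the BRM libraries and 17.7, 18.01, 39.8 and 32.4 CPM in the Double libraries. No Double library came near the BRM range (6.27 ± 0.50, adjusted p = 3.55e-06, 5.71 within libraries 1 and 2 and 6.62 within libraries 3 and 4). With BRM present it was 0.901 ± 0.538 CPM in NS and 16.1 ± 1.91 CPM in BRG1. GFPT2, which feeds glucose carbon into the hexosamine pathway (chromosome 5, 180300690 to 180353387, minus strand), rose from under 1 CPM, at 0.645, 0.45 and 0.8299 CPM in the BRM libraries and 16.7, 15.5, 36.4 and 27.2 CPM in the Double libraries (5.21 ± 0.41, adjusted p = 3.55e-06). Libraries 3 and 4 of Double were above libraries 1 and 2 at GFPT2, and the increase was 4.91 within libraries 1 and 2 and 5.29 within libraries 3 and 4. ITGA5, the fibronectin receptor subunit (chromosome 12, 54395261 to 54419460, minus strand), stood at 0.806, 1.55 and 1.43 CPM in the BRM libraries and 24.1, 21.7, 82.7 and 68.7 CPM in the Double libraries (5.25 ± 0.54, adjusted p = 1.83e-05). The groups did not overlap, and Double 3 and 4 were again the highest.

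Other leading increases included genes for secreted signals and cell-surface proteins. BMP6, the ligand that induces hepcidin (chromosome 6, 7726797 to 7881422, plus strand), stood at 0.564, 0.60 and 0.461 CPM in the BRM libraries and 23.6, 20.5, 39.7 and 22.3 CPM in the Double libraries (5.61 ± 0.65, adjusted p = 5.19e-05). Double 3 was apart from the other Double libraries, but the lowest of them was still far above BRM. CCL5, a chemokine (chromosome 17, 35871491 to 35880793, minus strand), stood at 0.564, 1.15 and 0.784 CPM in the BRM libraries and 15.5, 21.2, 28.3 and 25.3 CPM in the Double libraries (4.72 ± 0.45, adjusted p = 1.07e-05), and was 0.756 ± 0.486 CPM in NS and 19.6 ± 4.51 CPM in BRG1. ADORA1, the adenosine A1 receptor, ranged over 0.40 to 0.806 CPM in BRM and 17.6 to 59.6 CPM in Double (5.78 ± 0.56, adjusted p = 1.22e-05). ADAMTS4, an aggrecan-cleaving protease, ranged over 4.11 to 5.72 CPM in BRM and 56.9 to 184 CPM in Double (4.68 ± 0.41, adjusted p = 6.81e-06). PRSS22, a secreted serine protease, ranged over 0 to 0.10 CPM in BRM and 5.74 to 13.8 CPM in Double (6.79 ± 0.61, adjusted p = 6.98e-06). ARHGAP31 ranged over 0.0461 to 0.322 CPM in BRM and 4.11 to 12.7 CPM in Double (5.904 ± 0.70, adjusted p = 5.91e-05). At each of these genes the groups did not overlap, as the choice required. Others among the 15 were TSGA10IP (5.403), ZNF804A (5.24), UPK1A (4.75), MT1A (4.71) and ALOXE3 (4.61), with 0 to 1.57 CPM over the BRM libraries and 2.21 to 28.9 CPM over the Double libraries. MT1A is a metallothionein with close paralogs, so its estimated counts are uncertain.

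The 15 largest decreases included many liver genes, and at all 15 every BRM library stood above the NS mean. Ranking by Double against BRM favours genes with high BRM levels, and the share over all genes was not taken. The position of BRM above NS is therefore only a description of these 15. GSTA1, a glutathione transferase of hepatocytes (chromosome 6, 52791664 to 52803910, minus strand), stood at 705, 749 and 446 CPM in the BRM libraries and 15.7, 16.3, 16.6 and 21.9 CPM in the Double libraries (−5.17 ± 0.47, adjusted p = 8.08e-06, −5.505 within libraries 1 and 2 and −4.504 within libraries 3 and 4). With BRM present it was 34.4 ± 15.1 CPM in NS and 2.32 ± 1.45 CPM in BRG1. The Double libraries thus lay below the NS mean and far below BRM. Its neighbour GSTA2 (chromosome 6, 52750089 to 52763569, minus strand) stood at 98.96, 120.3 and 73.4 CPM in the BRM libraries and 1.75, 2.97, 3.72 and 3.55 CPM in the Double libraries (−5.02 ± 0.47, adjusted p = 1.01e-05). These paralogs are similar in sequence and their counts share reads by estimation, so the split between them is uncertain. FGB, the fibrinogen beta chain (chromosome 4, 154562956 to 154571086, plus strand), stood at 1031, 913 and 963 CPM in the BRM libraries and 49.3, 59.2, 26.2 and 50.6 CPM in the Double libraries (−4.39 ± 0.67, adjusted p = 0.000405, −4.16 within libraries 1 and 2 and −4.62 within libraries 3 and 4). It was 133 ± 59.7 CPM in NS and 27.3 ± 24.3 CPM in BRG1. G6PC, the enzyme that releases free glucose from the liver (chromosome 17, 42900797 to 42913369, plus strand), stood at 7.58, 15.3 and 6.27 CPM in the BRM libraries and 0.711, 0.5396, 0.0702 and 0.343 CPM in the Double libraries (−4.58 ± 0.64, adjusted p = 0.000189), and was 0.666 ± 0.155 CPM in NS and 0.268 ± 0.249 CPM in BRG1. The Double libraries lay on both sides of the NS mean at G6PC.

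FETUB, a liver-secreted fetuin (chromosome 3, 186635969 to 186653141, plus strand), stood at 11.5, 20.3 and 14.02 CPM in the BRM libraries and 0.492, 0.674, 0.386 and 0.858 CPM in the Double libraries (−4.67 ± 0.37, adjusted p = 3.55e-06), and was 1.98 ± 0.605 CPM in NS and 0.756 ± 0.237 CPM in BRG1. PGLYRP2, a peptidoglycan-cleaving enzyme that hepatocytes secrete, stood at 6.45, 14.2 and 22.6 CPM in the BRM libraries and 0.273, 0.2698, 0.316 and 1.09 CPM in the Double libraries (−4.89 ± 0.59, adjusted p = 6.57e-05). Both had groups that did not overlap, as the choice required. SLC22A9, an organic anion transporter of the liver, ranged over 7.01 to 10.7 CPM in BRM and 0.135 to 0.687 CPM in Double (−4.49 ± 0.47, adjusted p = 2.00e-05). UROC1, the urocanase of histidine breakdown, ranged over 4.75 to 20.98 CPM in BRM and 0.2698 to 1.202 CPM in Double (−4.19 ± 0.64, adjusted p = 0.000398). UGT2B4, a bile acid glucuronosyltransferase with close paralogs and so uncertain counts, ranged over 15.9 to 21.9 CPM in BRM and 0.629 to 0.913 CPM in Double (−4.53 ± 0.69, adjusted p = 0.000389). Every Double library was below every BRM library at these genes, again by the choice. The others among the 15 were NYNRIN (−4.93), SIGLEC11 (−4.79), RAMP1 (−4.67), AATK (−4.64), KLHL13 (−4.57) and STUM (−4.304). KLHL13 differed most between the sets, at −7.47 within libraries 1 and 2 and −3.73 within libraries 3 and 4, with an adjusted p of 0.0129.

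Genes of the AP-1 family and other immediate early genes, transcription factors that cells switch on within minutes of growth factor or stress signals, were mostly called higher in Double. Of the 28 members tested, 17 were called higher and 1 lower (median 1.43, 1.53 within libraries 1 and 2, 1.51 within libraries 3 and 4), beside a median of −0.02 over all genes. The higher calls numbered 19 within libraries 1 and 2 and 20 within libraries 3 and 4. JUNB, an AP-1 subunit (chromosome 19, 12791496 to 12793315, plus strand), stood at 7.49, 12.3 and 14.5 CPM in the BRM libraries and 72.97, 79.3, 134 and 113 CPM in the Double libraries (3.12 ± 0.28, adjusted p = 6.98e-06). FOSL1, its usual partner FRA-1 in tumour cells (chromosome 11, 65892049 to 65900573, minus strand), stood at 7.66, 8.85 and 14.2 CPM in the BRM libraries and 43.9, 45.5, 63.8 and 57.6 CPM in the Double libraries (2.36 ± 0.21, adjusted p = 6.98e-06). Neither gene's groups overlapped. EGR1, an immediate target of ERK signalling (chromosome 5, 138465490 to 138469315, plus strand), stood at 3.71, 3.6 and 4.89 CPM in the BRM libraries and 55.5, 58.3, 38.6 and 53.3 CPM in the Double libraries (3.65 ± 0.34, adjusted p = 8.84e-06). It was 30.4 ± 9.33 CPM in NS and 73.4 ± 26.6 CPM in BRG1, so the BRM libraries were the low ones and the Double libraries lay between the NS and BRG1 means. KLF2 ranged over 0.725 to 1.57 CPM in BRM and 8.67 to 13.6 CPM in Double (3.14 ± 0.32, adjusted p = 1.44e-05). The single member called lower was ATF3 (−1.78), named here after its value was seen.

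Ligands of the EGF receptor and feedback inhibitors of the ERK pathway moved in the same direction. 14 of the 25 members tested were called higher and 2 lower (median 1.04, 1.099 within libraries 1 and 2, 1.01 within libraries 3 and 4). SPRY4, an inhibitor that ERK signalling induces (chromosome 5, 142310427 to 142326455, minus strand), stood at 18.9, 32.2 and 38.1 CPM in the BRM libraries and 299, 254, 371 and 310.1 CPM in the Double libraries (3.37 ± 0.33, adjusted p = 1.22e-05). DUSP6, the phosphatase that removes ERK's activating phosphates (chromosome 12, 89347232 to 89353271, minus strand), stood at 10.2, 10.6 and 10.6 CPM in the BRM libraries and 103, 104, 79.7 and 53.8 CPM in the Double libraries (3.02 ± 0.35, adjusted p = 5.14e-05). Every Double library was above every BRM library at both. DUSP6 was 64.6 ± 29.8 CPM in NS and 96.9 ± 21.3 CPM in BRG1, so the BRM libraries were below both means. AREG, an EGF receptor ligand, ranged over 1.75 to 1.93 CPM in BRM and 9.15 to 15.4 CPM in Double (2.86 ± 0.34, adjusted p = 6.01e-05). LIF, a cytokine of the IL-6 family, ranged over 7.98 to 9.05 CPM in BRM and 38.2 to 57.7 CPM in Double (2.38 ± 0.22, adjusted p = 7.01e-06). The 2 members called lower were receptors, EGFR (−0.88 ± 0.29, adjusted p = 0.04403) and ERBB2 (−1.28), the latter named after its value was seen. With BRM present, BRG1 depletion gave 12 higher and 2 lower calls on this list and 17 higher and 0 lower on the AP-1 list. Background there was 12.5% of genes higher and 9.97% lower. Leaving out 1 library ended the call of EGFR without Double 1, BRM 2, Double 2, BRM 3 or Double 4 (adjusted p = 0.0531 to 0.213).

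Promoter sequence was read for AP-1 motifs because AP-1 genes rose. Windows of 250 bases before to 50 bases after the RefSeq start (GRCh38.p14) were at hand for 10517 of the 14621 genes tested, some with several starts, 15354 windows in all. The motif TGANTCA, the AP-1 site on either strand, occurred in 7.798% of 1603 windows of genes called higher, 5.58% of 1594 windows of genes called lower, 5.46% of windows of all genes tested and 7.71% of all 35116 RefSeq windows. A window was at hand for 9 of the 15 largest increases, and ITGA5 and ALOXE3 were those that held the motif. The shares are descriptions, and a match is not evidence of binding. EMP1 and PLAUR, members of the surface and protease groups described next, are shown because both carry the motif upstream and both rose. The 250 bases before the start are given 5′ to 3′ with the motif in capitals. At EMP1 the matches begin 175 and 48 bases before the start, and at PLAUR 186 bases before it.

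EMP1 (chr12:13196476-13196725, plus strand): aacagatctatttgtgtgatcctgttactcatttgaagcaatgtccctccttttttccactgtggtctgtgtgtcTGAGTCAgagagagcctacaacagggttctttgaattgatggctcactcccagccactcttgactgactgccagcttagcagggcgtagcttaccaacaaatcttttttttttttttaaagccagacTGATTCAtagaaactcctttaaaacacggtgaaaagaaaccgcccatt
PLAUR (chr19:43670170-43670419, minus strand): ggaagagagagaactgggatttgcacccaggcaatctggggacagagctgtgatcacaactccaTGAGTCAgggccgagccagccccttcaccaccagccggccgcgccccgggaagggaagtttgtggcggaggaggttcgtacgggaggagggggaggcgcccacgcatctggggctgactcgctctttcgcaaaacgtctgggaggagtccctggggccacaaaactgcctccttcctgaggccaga

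In the plasminogen activator system, which cleaves matrix at the cell surface, 3 of 10 members tested were called higher and 1 lower (median 0.30, 0.24 within libraries 1 and 2, 0.62 within libraries 3 and 4). PLAUR, the urokinase receptor (chromosome 19, 43646095 to 43670547, minus strand), stood at 2.58, 2.95 and 3.14 CPM in the BRM libraries and 20.4, 24.3, 50.01 and 33.8 CPM in the Double libraries (3.47 ± 0.29, adjusted p = 4.49e-06). PLAU, urokinase itself (chromosome 10, 73909177 to 73917497, plus strand), stood at 1.93, 3.25 and 4.66 CPM in the BRM libraries and 23.4, 22.3, 85.5 and 53.04 CPM in the Double libraries (3.79 ± 0.50, adjusted p = 0.000133). The groups did not overlap at PLAUR or PLAU, and Double 3 was the highest library at both. LRP1, which clears protease complexes from the surface, was lower (−1.205 ± 0.21, adjusted p = 0.0012).

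Membrane, annexin and actin-linker genes gave 10 higher and 0 lower calls among 33 tested (median 0.14, 0.07 within libraries 1 and 2, 0.26 within libraries 3 and 4). EMP1, a tetraspan membrane protein (chromosome 12, 13196716 to 13219939, plus strand), stood at 1.45, 0.95 and 1.52 CPM in the BRM libraries and 14.6, 10.8, 29.96 and 15.7 CPM in the Double libraries (3.77 ± 0.46, adjusted p = 7.60e-05). FXYD5, a regulator of the sodium pump and of adhesion, ranged over 0.45 to 1.34 CPM in BRM and 7.76 to 20.7 CPM in Double (4.103 ± 0.50, adjusted p = 7.60e-05). S100A11, a calcium-binding partner of annexins, stood at 9.99, 16.4 and 22.4 CPM in the BRM libraries and 116, 144, 177 and 138 CPM in the Double libraries (3.14 ± 0.32, adjusted p = 1.92e-05). The groups did not overlap at these genes. Of integrins and laminins, 7 of 25 were called higher and 3 lower (median 0.15, 0.05 within libraries 1 and 2, 0.14 within libraries 3 and 4). ITGA2, a collagen receptor subunit, ranged over 41.2 to 59.8 CPM in BRM and 272 to 398 CPM in Double (2.85 ± 0.34, adjusted p = 5.78e-05). ITGB1, the beta subunit it shares with ITGA5, ranged over 367 to 403 CPM in BRM and 925 to 1374 CPM in Double (1.61 ± 0.22, adjusted p = 0.000185). ITGB2, the leukocyte integrin beta subunit, went the other way, at 30.1 to 49.4 CPM in BRM and 4.04 to 7.38 CPM in Double (−2.81 ± 0.28, adjusted p = 1.29e-05).

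Targets of the co-activator YAP and of TGF-beta were called higher more often than lower, with medians closer to 0. 7 of 24 YAP targets were called higher and 3 lower (median 0.54, 0.37 within libraries 1 and 2, 0.80 within libraries 3 and 4). CTGF, a matricellular protein and standard YAP readout (chromosome 6, 131948176 to 131951373, minus strand), stood at 51.5, 61.5 and 47.6 CPM in the BRM libraries and 224, 213, 163 and 177 CPM in the Double libraries (1.86 ± 0.23, adjusted p = 7.29e-05). It was 206 ± 39.5 CPM in NS and 339 ± 81.03 CPM in BRG1, so the BRM libraries were the low ones. MYOF, a membrane-repair protein on this list and the membrane list, ranged over 5.48 to 10.1 CPM in BRM and 30.6 to 67.9 CPM in Double (2.67 ± 0.41, adjusted p = 0.0004401), and NUAK2 over 1.29 to 5.26 CPM in BRM and 14.03 to 21.7 CPM in Double (2.39 ± 0.36, adjusted p = 0.0003796). 8 of 29 TGF-beta targets were called higher and 1 lower (median 0.45, 0.38 within libraries 1 and 2, 0.54 within libraries 3 and 4). That count of higher calls was 5 without BRM 1, Double 1, BRM 2, Double 2 or BRM 3. TIMP1, an inhibitor of matrix proteases, ranged over 14.99 to 67.7 CPM in BRM and 320.3 to 725 CPM in Double (3.77 ± 0.50, adjusted p = 0.000146). LTBP2, a TGF-beta binding matrix protein, ranged over 4.59 to 10.3 CPM in BRM and 41.6 to 95.6 CPM in Double (3.14 ± 0.43, adjusted p = 0.000158). Mesenchymal and matrix genes split, with 6 higher and 3 lower of 25 and a median of 0.00 whose sign differed between the sets (−0.20 and 0.39). Of these, MMP14, a membrane-bound collagenase, rose, with 12.8 to 21.9 CPM in BRM and 84.3 to 159.6 CPM in Double (2.81 ± 0.27, adjusted p = 1.14e-05), as did the transcription factors SNAI1 (1.96) and ZEB1 (1.18), while LOX, the collagen cross-linker, fell (−1.46 ± 0.26, adjusted p = 0.00135).

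Most tested genes for carrier and other secreted plasma proteins were called lower in Double. Of 38 carrier and other secreted plasma proteins, 23 were called lower and 0 higher (median −1.71, −1.71 within libraries 1 and 2, −1.84 within libraries 3 and 4). The lower calls numbered 30 within libraries 1 and 2 and 26 within libraries 3 and 4. AFP, the fetal albumin (chromosome 4, 73431138 to 73456174, plus strand), stood at 9739, 6686 and 8203 CPM in the BRM libraries and 1201, 1193, 799 and 1226 CPM in the Double libraries (−2.89 ± 0.45, adjusted p = 0.000464), and was 3887 ± 1577 CPM in NS and 999.7 ± 615 CPM in BRG1. ITIH3, a hyaluronan-binding plasma protein (chromosome 3, 52794768 to 52809009, plus strand), stood at 183, 299.8 and 318 CPM in the BRM libraries and 11.8, 11.9, 14.1 and 21.6 CPM in the Double libraries (−4.17 ± 0.38, adjusted p = 8.64e-06). SERPINF1, the anti-angiogenic factor PEDF (chromosome 17, 1761959 to 1777574, plus strand), stood at 555, 621 and 693 CPM in the BRM libraries and 82.4, 106, 83.1 and 122 CPM in the Double libraries (−2.66 ± 0.28, adjusted p = 2.25e-05). The groups did not overlap at any of the 3. With BRM present, BRG1 depletion called 26 of the 38 lower and 0 higher (median −1.57).

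Acute phase, complement and coagulation genes followed. 5 of 15 acute phase genes were called lower and 0 higher (median −1.003, −0.80 within libraries 1 and 2, −1.23 within libraries 3 and 4). FGG, the fibrinogen gamma chain (chromosome 4, 154604134 to 154612967, minus strand), stood at 1237, 1279.8 and 1597 CPM in the BRM libraries and 104, 110.5, 65.4 and 139 CPM in the Double libraries (−3.71 ± 0.75, adjusted p = 0.00304). A2M, a broad protease inhibitor whose exons overlap an antisense gene, ranged over 4952 to 6051 CPM in BRM and 735 to 1168 CPM in Double (−2.47 ± 0.43, adjusted p = 0.00105). 12 of 24 complement genes were called lower and 0 higher (median −1.27, −1.300 within libraries 1 and 2, −1.201 within libraries 3 and 4). MASP1, the lectin pathway protease, ranged over 13.2 to 25.8 CPM in BRM and 1.203 to 2.403 CPM in Double (−3.73 ± 0.40, adjusted p = 2.40e-05). C4BPA, a complement inhibitor (chromosome 1, 207104262 to 207144972, plus strand), stood at 25.8, 38.9 and 22.9 CPM in the BRM libraries and 6.34, 5.801, 3.34 and 5.55 CPM in the Double libraries (−2.48 ± 0.32, adjusted p = 0.000112). CD46, a membrane-bound complement inhibitor, ranged over 158 to 215 CPM in BRM and 38.1 to 58.4 CPM in Double (−1.800 ± 0.21, adjusted p = 4.56e-05). The groups did not overlap at these genes. Of 22 coagulation genes, 12 were called lower and 2 higher (median −1.498, −1.39 within libraries 1 and 2, −1.64 within libraries 3 and 4). F5, a cofactor of thrombin formation (chromosome 1, 169514166 to 169586588, minus strand), stood at 338, 411 and 374 CPM in the BRM libraries and 86.1, 87.95, 71.9 and 94.6 CPM in the Double libraries (−2.14 ± 0.16, adjusted p = 3.25e-06), and F11 ranged over 33.7 to 44 CPM in BRM and 3.898 to 8.03 CPM in Double (−2.63 ± 0.37, adjusted p = 0.0002097). TFPI2, a protease inhibitor, was 1 of the 2 called higher, over 0.0806 to 0.369 CPM in BRM and 1.48 to 3.09 CPM in Double (3.22 ± 0.46, adjusted p = 0.000245).

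Apolipoproteins and other lipoprotein genes gave 12 lower calls and 1 higher of 26 (median −0.85, −0.70 within libraries 1 and 2, −0.97 within libraries 3 and 4). APOA5, a regulator of plasma triglyceride (chromosome 11, 116789367 to 116792420, minus strand), stood at 28.7, 26.4 and 52.2 CPM in the BRM libraries and 2.41, 2.496, 2.42 and 4.75 CPM in the Double libraries (−3.57 ± 0.41, adjusted p = 5.03e-05). APOA4 in the same gene cluster ranged over 2.82 to 8.48 CPM in BRM and 0.328 to 0.744 CPM in Double (−3.62 ± 0.46, adjusted p = 9.12e-05). APOC2, the activator of lipoprotein lipase, ranged over 134 to 161 CPM in BRM and 17.8 to 40.4 CPM in Double (−2.22 ± 0.30, adjusted p = 0.000154). All 4 Double libraries were below all 3 BRM libraries at each. APOA1, the main protein of HDL, stood at 2601, 3805 and 4729 CPM in the BRM libraries and 948, 1003, 906 and 1851 CPM in the Double libraries (−1.66 ± 0.48, adjusted p = 0.0246), with Double 4 nearest to BRM. The call was lost on omission of a library for APOA1 without Double 1, BRM 2, Double 2, BRM 3 or Double 3 (adjusted p = 0.06499 to 0.0866).

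HNF1 motifs were counted in the same promoter windows because HNF1 factors bind near the starts of many plasma protein genes. The HNF1 motif searched, a 10-base pattern on either strand whose matches stand in capitals below, occurred in 15 of 1594 windows of genes called lower (0.941%), 4 of 1603 windows of genes called higher (0.2495%), 0.313% of windows of all genes tested and 0.322% of all RefSeq windows. A window was at hand for 10 of the 15 largest decreases and none of those held the motif. AFP and C4BPA are shown as members of the secreted and complement groups with a match, at 132 and 50 bases before the start. The 250 bases upstream are given 5′ to 3′ with the motif in capitals. The other motifs searched on both strands, ACATTCC for TEAD, TTGCNNAA for C/EBP, CCAAT for NF-Y and TTTNGCGC for E2F, occurred in 2.87%, 6.49%, 30.2% and 1.43% of windows of genes called higher and in 2.76%, 7.84%, 34.5% and 1.63% of those called lower. Over all genes tested those shares were 2.39%, 7.74%, 34.3% and 2.52%.

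AFP (chr4:73435971-73436220, plus strand): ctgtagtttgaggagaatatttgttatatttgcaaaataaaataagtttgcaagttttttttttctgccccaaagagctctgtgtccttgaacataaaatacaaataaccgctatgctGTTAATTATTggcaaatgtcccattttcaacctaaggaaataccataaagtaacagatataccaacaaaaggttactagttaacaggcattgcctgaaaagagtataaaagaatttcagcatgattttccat
C4BPA (chr1:207103983-207104232, plus strand): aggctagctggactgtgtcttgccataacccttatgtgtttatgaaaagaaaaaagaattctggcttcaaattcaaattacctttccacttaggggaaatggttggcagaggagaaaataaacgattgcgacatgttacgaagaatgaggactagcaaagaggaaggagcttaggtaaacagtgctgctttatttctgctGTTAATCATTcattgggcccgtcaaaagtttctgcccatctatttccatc

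Hepatocyte transcription factors were lower or not called in the main fit. Of 26 tested, 8 were called lower and 0 higher (median −0.36, −0.47 within libraries 1 and 2, −0.37 within libraries 3 and 4). The count of lower calls was 5 without Double 3 and 5 in a fit of the 7 libraries alone, and that of higher calls 1 without BRM 3 or Double 3. Within libraries 1 and 2 there were 4 higher and 11 lower calls, and with a term for the library set 3 and 12. NR1H4, the bile acid receptor FXR (chromosome 12, 100473708 to 100564413, plus strand), stood at 129.9, 111 and 79.2 CPM in the BRM libraries and 18.4, 18.9, 8.78 and 13.6 CPM in the Double libraries (−2.84 ± 0.40, adjusted p = 0.000215), and was 43.1 ± 6.16 CPM in NS and 6.47 ± 3.88 CPM in BRG1. NR1I2, the xenobiotic receptor PXR, ranged over 13.6 to 16.4 CPM in BRM and 5.26 to 6.07 CPM in Double (−1.42 ± 0.22, adjusted p = 0.000455). PPARA, the fatty acid receptor that drives oxidation genes, ranged over 33.3 to 41.3 CPM in BRM and 12.7 to 17.4 CPM in Double (−1.26 ± 0.20, adjusted p = 0.000553). FOXA2, a pioneer factor of the liver (chromosome 20, 22581005 to 22585455, minus strand), stood at 54.96, 53.1 and 93.3 CPM in the BRM libraries and 20.8, 26.9, 20.2 and 38.4 CPM in the Double libraries (−1.34 ± 0.29, adjusted p = 0.00525). At all 4 genes every Double library was below every BRM library.

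Drug-metabolising enzymes gave many more lower than higher calls. 14 of 27 conjugation enzymes were called lower and 0 higher (median −1.03, −1.03 within libraries 1 and 2, −0.93 within libraries 3 and 4), and that lower count was 8 without BRM 2. MGST1, a membrane-bound glutathione transferase, ranged over 145 to 198 CPM in BRM and 43.1 to 57.1 CPM in Double (−1.795 ± 0.19, adjusted p = 2.28e-05). 11 of 26 cytochrome P450 enzymes were called lower and 1 higher (median −1.08, −1.01 within libraries 1 and 2, −0.90 within libraries 3 and 4), the lower count being 6 to 7 without Double 1, BRM 2, Double 2, BRM 3 or Double 3 and 7 with no filter on low counts. CYP4F2, a fatty acid and vitamin hydroxylase, ranged over 4.7 to 8.53 CPM in BRM and 0.1405 to 0.629 CPM in Double (−4.03 ± 0.49, adjusted p = 6.57e-05). CYP3A7, the fetal liver form of CYP3A, ranged over 3.71 to 5.45 CPM in BRM and 0.515 to 0.843 CPM in Double (−2.71 ± 0.37, adjusted p = 0.0001502). Both belong to families of close paralogs, so their counts are uncertain. Of 20 bile acid genes, 8 were called lower and 1 higher (median −1.11, −1.08 within libraries 1 and 2, −0.71 within libraries 3 and 4). AKR1D1, a reductase of bile acid synthesis, ranged over 19.9 to 33.9 CPM in BRM and 1.69 to 3.49 CPM in Double (−3.55 ± 0.46, adjusted p = 0.000107). ABCB4, the canalicular phospholipid exporter, ranged over 18.9 to 19.4 CPM in BRM and 4.25 to 6.52 CPM in Double (−1.81 ± 0.21, adjusted p = 4.03e-05). Targets of the antioxidant factor NRF2 gave 13 lower and 2 higher calls of 29 (median −0.71, −0.81 within libraries 1 and 2, −0.91 within libraries 3 and 4), with 8 without BRM 2 for the lower count. FTH1, the ferritin heavy chain on that list, ranged over 5101 to 7973 CPM in BRM and 1939 to 2964 CPM in Double (−1.33 ± 0.27, adjusted p = 0.00332).

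Fatty acid oxidation genes had the highest share of calls among the lists with at least 20 members tested. Of 30, 21 were called lower and 0 higher (median −0.89, −1.04 within libraries 1 and 2, −0.85 within libraries 3 and 4). ACAA2, the mitochondrial thiolase (chromosome 18, 49782167 to 49813960, minus strand), stood at 252, 349 and 276 CPM in the BRM libraries and 99.5, 107, 95.2 and 95.1 CPM in the Double libraries (−1.56 ± 0.16, adjusted p = 1.39e-05). EHHADH, the peroxisomal bifunctional enzyme, ranged over 66.9 to 88.3 CPM in BRM and 19.4 to 29.7 CPM in Double (−1.605 ± 0.17, adjusted p = 2.40e-05). ECI2, which handles unsaturated fatty acids, ranged over 209 to 346 CPM in BRM and 80.5 to 103 CPM in Double (−1.54 ± 0.18, adjusted p = 4.57e-05). The groups did not overlap at these genes. With BRM present, 11 were called lower and 2 higher after BRG1 depletion, and 3 members had a called interaction. Fatty acid and triglyceride synthesis genes gave 12 lower and 2 higher calls of 28 (median −1.26, −1.27 within libraries 1 and 2, −1.29 within libraries 3 and 4), the lower count being 6 to 7 without Double 1, Double 2 or BRM 3. GPAM, which starts triglyceride assembly (chromosome 10, 112149864 to 112215377, minus strand), stood at 268, 173 and 139 CPM in the BRM libraries and 36.6, 35.7, 22.3 and 38.6 CPM in the Double libraries (−2.54 ± 0.30, adjusted p = 6.01e-05).

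In cholesterol synthesis 8 of 23 genes were called lower and 0 higher (median −1.45, −1.24 within libraries 1 and 2, −1.67 within libraries 3 and 4), and 16 of the 23 had every Double library below every BRM library. The number of calls varied with the fit: it was 2 to 4 without Double 1, BRM 2, Double 2, BRM 3 or Double 3, 14 with DESeq2, 4 with no filter on low counts and 14 in a fit of the 7 libraries alone. HMGCS1, which makes the HMG-CoA that enters the pathway, ranged over 230.0 to 409.9 CPM in BRM and 80.4 to 112 CPM in Double (−1.77 ± 0.49, adjusted p = 0.0208). SC5D, a late-step desaturase, ranged over 108 to 152 CPM in BRM and 57.6 to 66.98 CPM in Double (−1.13 ± 0.24, adjusted p = 0.00438). With 1 library left out, the call was lost for HMGCS1 without BRM 1, BRM 3 or Double 3 (adjusted p = 0.0572 to 0.0643).

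Nitrogen and glucose metabolism showed the same direction. Of 30 urea cycle and amino acid catabolism genes, 14 were called lower and 0 higher (median −1.05, −1.07 within libraries 1 and 2, −1.12 within libraries 3 and 4), the lower count being 9 without Double 1, Double 2 or BRM 3. CPS1, which makes the carbamoyl phosphate that enters the urea cycle (chromosome 2, 210477682 to 210679107, plus strand), stood at 76.4, 70.95 and 62.2 CPM in the BRM libraries and 21.4, 18.9, 15.5 and 21.4 CPM in the Double libraries (−1.86 ± 0.15, adjusted p = 3.55e-06). KYNU, an enzyme of tryptophan breakdown (chromosome 2, 142877498 to 143055832, plus strand), stood at 47.9, 45.4 and 36.9 CPM in the BRM libraries and 11.5, 12.2, 11.1 and 11.3 CPM in the Double libraries (−1.91 ± 0.15, adjusted p = 3.55e-06). The 4 Double libraries were close together at both genes and below all BRM libraries. BHMT, the betaine methyltransferase, ranged over 14.6 to 34.7 CPM in BRM and 1.62 to 2.698 CPM in Double (−3.38 ± 0.45, adjusted p = 0.000128), and GNMT, the glycine methyltransferase, over 9.85 to 10.8 CPM in BRM and 0.5396 to 1.37 CPM in Double (−3.599 ± 0.46, adjusted p = 9.89e-05). 5 of 16 gluconeogenesis and glycogen genes were called lower and 0 higher (median −1.08, −1.09 within libraries 1 and 2, −1.15 within libraries 3 and 4), with 8 without Double 4 and 8 with DESeq2. PYGL, the liver glycogen phosphorylase, ranged over 186 to 247 CPM in BRM and 93.5 to 116 CPM in Double (−1.04 ± 0.15, adjusted p = 0.000307). Glycolysis and hypoxia genes were split, 5 higher and 4 lower of 29, the lower count being 2 without BRM 1. Those that rose included HK1, the hexokinase of non-liver tissues, over 1.69 to 3.14 CPM in BRM and 6.21 to 18.1 CPM in Double (2.14 ± 0.39, adjusted p = 0.00136), PFKP, the platelet phosphofructokinase, over 1.77 to 4.196 CPM in BRM and 12.5 to 20.6 CPM in Double (2.27 ± 0.28, adjusted p = 8.87e-05), and SLC2A3, a high-affinity glucose transporter, over 149.6 to 287 CPM in BRM and 749 to 1057 CPM in Double (2.03 ± 0.41, adjusted p = 0.00305).

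Iron and zinc genes moved in both directions. On the list for BMP6, hepcidin and iron, 4 of 24 were called higher and 4 lower. TFR2, the hepatocyte iron sensor (chromosome 7, 100620416 to 100642779, minus strand), stood at 56.9, 71.4 and 129 CPM in the BRM libraries and 7.76, 6.88, 7.45 and 17.7 CPM in the Double libraries (−3.11 ± 0.48, adjusted p = 0.000411), opposite to the increase of BMP6. TMPRSS6, the protease that restrains hepcidin, ranged over 14.8 to 15.6 CPM in BRM and 1.55 to 4.12 CPM in Double (−2.74 ± 0.43, adjusted p = 0.000483). BMP4 rose, with 57.8 to 72.1 CPM in BRM and 128 to 200.3 CPM in Double (1.36 ± 0.25, adjusted p = 0.00156). Metallothionein and zinc transport genes gave 3 higher and 2 lower calls of 15, the former being 1 without BRM 2. MT2A, a main metallothionein of liver cells with uncertain counts among its paralogs, stood at 34.97, 68.95 and 457 CPM in the BRM libraries and 1021, 1111, 1659.9 and 1708 CPM in the Double libraries (2.88 ± 0.74, adjusted p = 0.0134). BRM 3 was far above BRM 1 and 2 there, and the change was 4.35 within libraries 1 and 2 and 1.92 within libraries 3 and 4. Hexosamine and glycan genes gave 4 higher and 1 lower calls of 13, the former being 2 without BRM 2 or Double 3, 2 with no filter on low counts and 2 in a fit of the 7 libraries alone. HAS3, a hyaluronan synthase, ranged over 0.725 to 0.80 CPM in BRM and 1.62 to 2.41 CPM in Double (1.37 ± 0.26, adjusted p = 0.001798), while UAP1, which makes the activated sugar for these pathways, was lower (−0.97 ± 0.19, adjusted p = 0.002402). Leaving out 1 library ended the call of MT2A without BRM 2 (adjusted p = 0.0626).

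Keratins and junction genes were mixed. Of 9 keratins, 3 were called higher and 3 lower. KRT15, a keratin of basal epithelia, stood at 3.06, 3.75 and 2.26 CPM in the BRM libraries and 48.8, 53.96, 49.98 and 33.2 CPM in the Double libraries (3.94 ± 0.45, adjusted p = 4.18e-05), and KRT80 fell, with 5.16 to 15.4 CPM in BRM and 0.742 to 4.88 CPM in Double (−2.19 ± 0.48, adjusted p = 0.005295). Epithelial junction and polarity genes gave 3 higher and 6 lower calls of 33 (median −0.12, 0.02 within libraries 1 and 2, −0.14 within libraries 3 and 4), the lower count being 2 to 3 without Double 1, BRM 2 or Double 2, 3 with no filter on low counts and 2 in a fit of the 7 libraries alone, and the higher count 1 without BRM 3. MARVELD2, tricellulin of tight junctions, ranged over 41.02 to 55.8 CPM in BRM and 14.6 to 16.6 CPM in Double (−1.59 ± 0.16, adjusted p = 1.92e-05). PARD6B, a polarity protein, rose, with 29.2 to 31.1 CPM in BRM and 68.9 to 97.6 CPM in Double (1.38 ± 0.25, adjusted p = 0.00122).

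Few cell cycle genes were called with all libraries in one fit, and the count of lower ones depended on the fit. Of 40 G1/S and replication genes, 2 were called higher and 3 lower (median −0.42, −0.35 within libraries 1 and 2, −0.44 within libraries 3 and 4), and of 34 G2/M genes 0 and 2 (median −0.24, −0.07 within libraries 1 and 2, −0.37 within libraries 3 and 4). The G1/S lower count was 0 to 1 without BRM 1, Double 1, BRM 2 or Double 3, 1 with no filter on low counts and 5 in a fit of the 7 libraries alone, and 18 within libraries 1 and 2, 5 within libraries 3 and 4 and 17 with a term for the library set. All Double libraries lay below all BRM libraries at 12 of the 40 genes, against 14.3% over all genes tested. The G2/M lower count was 0 to 1 without BRM 1, Double 1, BRM 2, Double 2, BRM 3 or Double 3 and 1 with no filter on low counts, and 6 within libraries 1 and 2 and 6 with the set term. The higher counts were 1 without Double 1, BRM 2 or Double 2 and 1 in a fit of the 7 libraries alone for G1/S and 2 without BRM 1 for G2/M. BIRC5, survivin, stood at 158, 170.0 and 204 CPM in the BRM libraries and 79.3, 80.7, 63.2 and 101 CPM in the Double libraries (−1.13 ± 0.35, adjusted p = 0.0333). CCND2, cyclin D2, rose, with 2.095 to 2.81 CPM in BRM and 7.98 to 17.9 CPM in Double (2.13 ± 0.47, adjusted p = 0.00552). With BRM present, BRG1 depletion called 20 of the G1/S and 22 of the G2/M genes lower (medians −0.88 and −1.02). No member of either list had a called interaction, so these counts are not shown to differ. Of 33 p53 targets, 7 were called higher and 2 lower, the former being 4 without BRM 1, and the median changed sign between the sets (−0.10 and 0.30). SFN, the 14-3-3 protein that holds cells in G2, ranged over 14.1 to 52.1 CPM in BRM and 87.8 to 212 CPM in Double (2.34 ± 0.46, adjusted p = 0.00261), and PLK3 over 16.1 to 23.9 CPM in BRM and 41.8 to 74.9 CPM in Double (1.58 ± 0.23, adjusted p = 0.000282). The call was lost on omission of a library for BIRC5 without BRM 1, Double 1, BRM 2, Double 2, BRM 3 or Double 3 (adjusted p = 0.0505 to 0.105).

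Stress and immune lists each held a few calls. In the ATF4 and unfolded protein response list 6 of 33 were called lower and 0 higher (median −0.36, −0.35 within libraries 1 and 2, −0.48 within libraries 3 and 4), the lower count being 3 without BRM 2. CANX, a chaperone of secretory proteins, ranged over 884 to 934 CPM in BRM and 417 to 523 CPM in Double (−0.88 ± 0.17, adjusted p = 0.00228). Heat shock chaperones gave 4 higher and 1 lower calls of 22 (median 0.22, 0.28 within libraries 1 and 2, 0.23 within libraries 3 and 4), the former being 2 without Double 3, 2 with no filter on low counts and 2 in a fit of the 7 libraries alone. HSPH1, a co-chaperone of HSP70, ranged over 89.9 to 126 CPM in BRM and 157 to 251 CPM in Double (1.08 ± 0.20, adjusted p = 0.00147). NF-kB and chemokine genes gave 7 higher and 2 lower calls of 24 (median 0.33, 0.46 within libraries 1 and 2, 0.40 within libraries 3 and 4). BIRC3, an inhibitor of cell death that NF-kB induces (chromosome 11, 102317450 to 102339403, plus strand), stood at 1.29, 0.45 and 0.645 CPM in the BRM libraries and 18.04, 18.8, 22.8 and 11.3 CPM in the Double libraries (4.52 ± 0.44, adjusted p = 1.28e-05), with no overlap. RELB, the NF-kB subunit of the alternative pathway, ranged over 3.06 to 10.7 CPM in BRM and 16.1 to 40.2 CPM in Double (2.21 ± 0.44, adjusted p = 0.00271). Interferon and MHC class I genes gave 5 higher and 2 lower calls of 32 (median 0.03, 0.06 within libraries 1 and 2, −0.07 within libraries 3 and 4). IRF9, a subunit of the interferon-activated factor ISGF3, rose, with 10.7 to 16.7 CPM in BRM and 63.1 to 85.4 CPM in Double (2.42 ± 0.22, adjusted p = 7.30e-06), while MX1, an interferon-induced antiviral gene, fell, with 10.8 to 15.1 CPM in BRM and 5.36 to 7.67 CPM in Double (−1.08 ± 0.22, adjusted p = 0.00346). Wnt targets gave 2 higher and 7 lower calls of 24, the lower count being 3 to 4 without Double 2 or BRM 3. SLC1A2, a glutamate transporter of Wnt-active hepatocytes, fell, with 93.4 to 202 CPM in BRM and 9.69 to 16.1 CPM in Double (−3.54 ± 0.38, adjusted p = 2.87e-05).

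**Figure D2:**
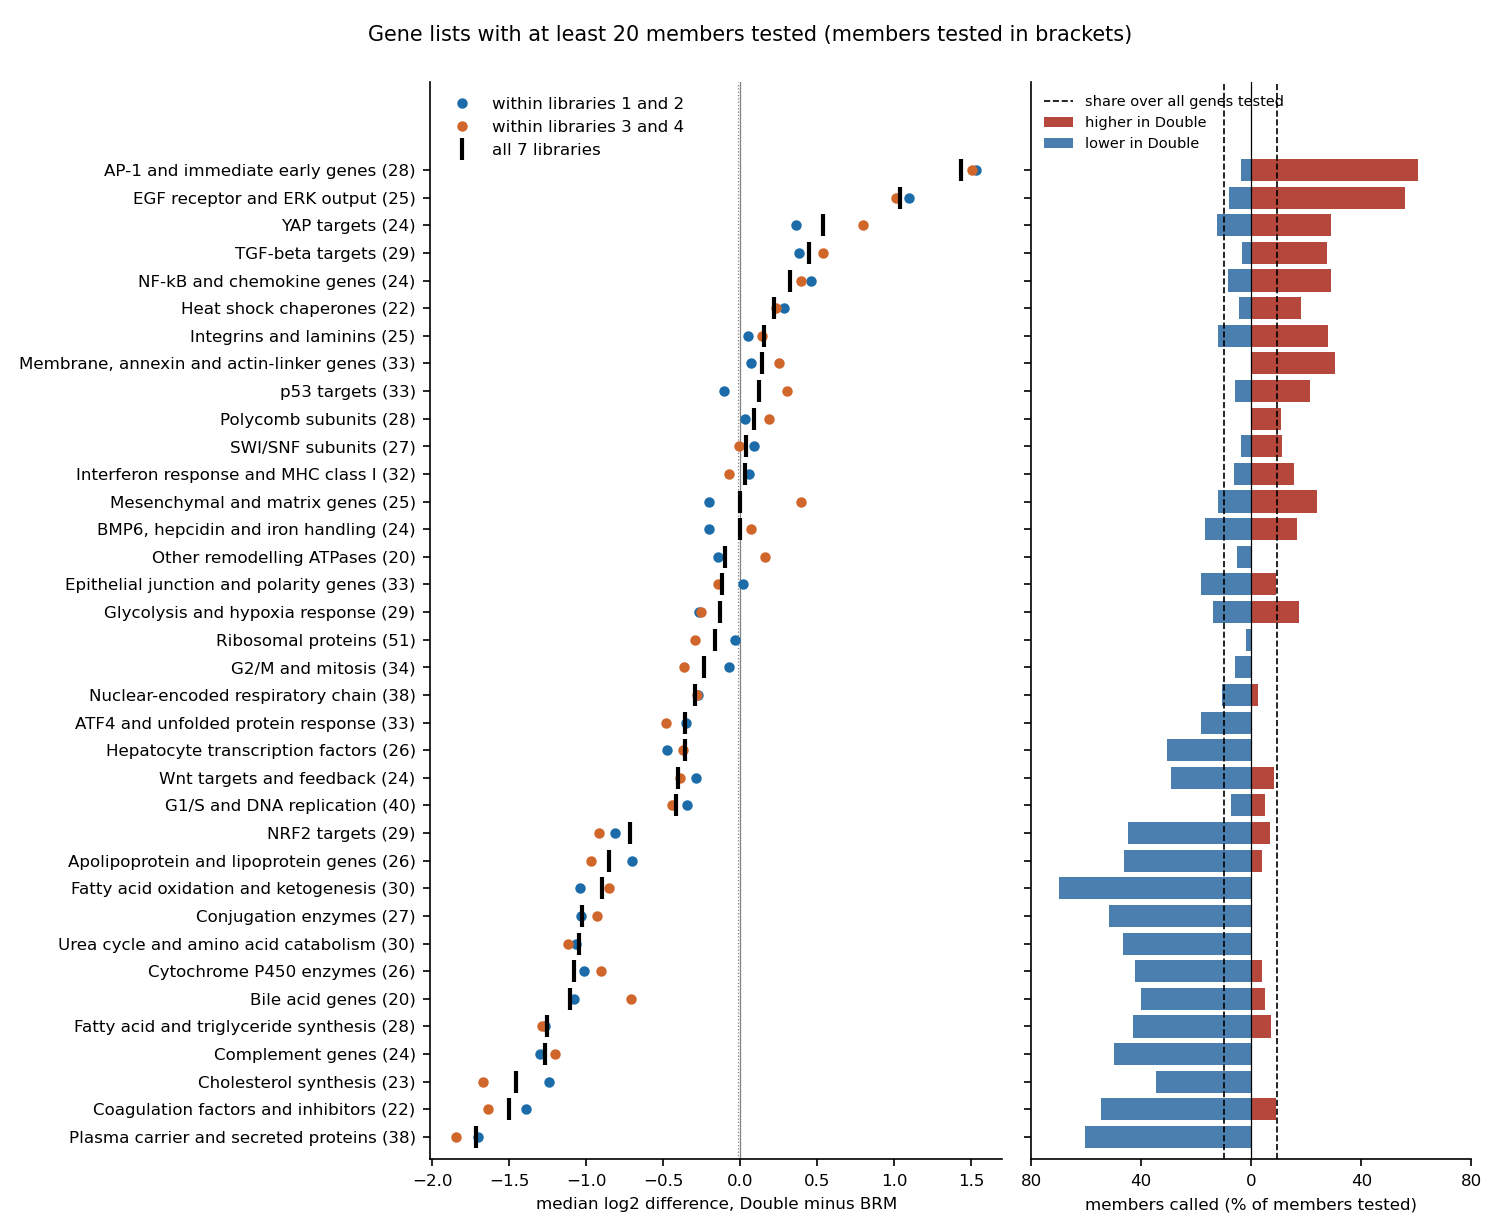
Left, median log2(Double/BRM) of each gene list with at least 20 members tested, over all 7 libraries and within each library set; right, the percentage of members called higher and lower, with dashed lines at the percentages over all genes tested (9.32 and 9.74%). Lists are ordered by the median over all 7 libraries, with plasma proteins (23 of 38 lower) at one end and the AP-1 list (17 of 28 higher) at the other. Fatty acid oxidation (21 of 30 lower) has the largest share of lower calls but a smaller median change than plasma proteins.

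Few other subunits of the complexes were called in the main fit. Of 27 SWI/SNF subunits, 3 were called higher and 1 lower, the latter being SMARCA4 itself. That is 14.8% of the list, beside 19.1% of all genes tested. BCL7B, an accessory subunit, stood at 24.8, 29.9 and 24.02 CPM in the BRM libraries and 45.04, 51.1, 42.5 and 34.9 CPM in the Double libraries (0.73 ± 0.16, adjusted p = 0.00631). SS18, the subunit fused in synovial sarcoma, ranged over 40.5 to 50.8 CPM in BRM and 58.8 to 87.1 CPM in Double (0.73 ± 0.21, adjusted p = 0.0237), and BRD9, the bromodomain subunit of the non-canonical complex, over 24 to 25.1 CPM in BRM and 30.6 to 41.4 CPM in Double (0.59 ± 0.19, adjusted p = 0.0448). The higher count was 1 without Double 1, BRM 2 or Double 2. Within libraries 1 and 2 the list gave 6 higher and 4 lower calls, and with a term for the library set 4 and 5, so lower calls were then not limited to SMARCA4. The 23 that were not called included SMARCA2 and the core subunits SMARCB1, 124 to 264 CPM in BRM and 97.8 to 185 CPM in Double (−0.40 ± 0.33, adjusted p = 0.449), and SMARCC1, 118 to 137 CPM in BRM and 94.5 to 134 CPM in Double (−0.19 ± 0.17, adjusted p = 0.509). ARID1A, which defines the canonical BAF complex, stood at 128, 125 and 157 CPM in the BRM libraries and 137, 135, 122 and 188 CPM in the Double libraries (0.09 ± 0.18, adjusted p = 0.795), with overlapping groups. PBRM1 and ARID2, which define the polybromo complex, gave −0.10 ± 0.16, adjusted p = 0.739 and 0.55 ± 0.20, adjusted p = 0.06902. PHF10 of that complex gave −0.74 ± 0.29, adjusted p = 0.0913. The lowest fold change among subunits not called was −1.399 at SMARCD3 and the highest 0.55 at ARID2. Of 20 other remodelling ATPases only CHD6 was called, lower over 57.6 to 90.1 CPM in BRM and 29.1 to 42.9 CPM in Double (−1.04 ± 0.22, adjusted p = 0.00403). Polycomb subunits, whose silencing SWI/SNF opposes, gave 3 higher and 0 lower calls of 28 (median 0.09). The higher share of 10.7% was near the 9.32% of all genes tested. With a term for the library set the list gave 6 higher and 4 lower calls. The 3 called in the main fit were JARID2, over 25.8 to 33.5 CPM in BRM and 69.1 to 95.2 CPM in Double (1.48 ± 0.23, adjusted p = 0.000498), PHC1 (1.23 ± 0.22, adjusted p = 0.0012) and PHF1 (1.06 ± 0.25, adjusted p = 0.007102). Among 10 HOX genes, 1 was called higher and 1 lower (median −0.10, 0.07 within libraries 1 and 2, 0.05 within libraries 3 and 4). The lower one was HOXA7 (−2.32 ± 0.71, adjusted p = 0.0333). The higher count stayed at 1 whichever BRM or Double library was left out. With 1 library left out, the call was lost for SS18 without Double 1, BRM 2, Double 2 or BRM 3 (adjusted p = 0.0572 to 0.0752), BRD9 without BRM 1, Double 1, BRM 2, Double 2, BRM 3 or Double 3 (adjusted p = 0.0669 to 0.102) and HOXA7 without Double 1, BRM 3, Double 3 or Double 4 (adjusted p = 0.0618 to 0.135).

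Markers of other cell types were measured beside these groups. Of 12 cholangiocyte markers 8 were tested, with a summed level of 686 to 1619 CPM in BRM and 1483 to 3161 CPM in Double, and KRT19 was the single call, at 298, 544 and 814 CPM in the BRM libraries and 1037, 1124, 2575 and 2298 CPM in the Double libraries (1.67 ± 0.42, adjusted p = 0.012), the count being 2 without BRM 3 or Double 3, 2 with DESeq2 and 2 with upper-quartile factors. CFTR was at 0 in all 7 libraries. Of 13 stellate and fibroblast markers 5 were tested and none was called (0 higher and 0 lower, summed level 128 to 222 CPM in BRM and 92.6 to 144 CPM in Double), and 8 stayed under 1 CPM in all 7 libraries. The lower count on that list was 1 to 2 without BRM 1 or Double 4 and 1 with DESeq2, and the higher count 1 without BRM 3. Of 16 endothelial and blood markers 8 were tested (summed level 62.9 to 87.4 CPM in BRM and 71 to 112 CPM in Double). LYVE1 was called higher, over 1.29 to 2.03 CPM in BRM and 12.3 to 30.4 CPM in Double (3.31 ± 0.34, adjusted p = 2.01e-05), and PECAM1, VWF and HBA1 lower, all under 6 CPM in every library. That lower count was 0 to 1 without Double 1, BRM 2 or BRM 3 and 1 in a fit of the 7 libraries alone. Of 12 neural markers 3 were tested (summed level 143 to 493 CPM in BRM and 308 to 688 CPM in Double), and SYP was called higher, over 0.50 to 1.98 CPM in BRM and 6.83 to 10.2 CPM in Double (2.85 ± 0.47, adjusted p = 0.000712). The part of other cell types in the results was not tested. Mitochondrially encoded transcripts gave no call among 13 (median −0.27, 0.03 within libraries 1 and 2, −0.51 within libraries 3 and 4). Ribosomal protein genes gave 1 lower and 0 higher of 51, and nuclear-encoded respiratory chain genes 4 and 1 of 38, the former being 2 without Double 1, BRM 2, Double 2, BRM 3 or Double 3, 2 with no filter on low counts and 2 in a fit of the 7 libraries alone. Oncofetal liver genes gave 5 lower and 1 higher of 18. They included GPC3, a glypican of liver tumours, over 2109 to 3048 CPM in BRM and 964 to 1248 CPM in Double (−1.15 ± 0.20, adjusted p = 0.000979), and IGF2, over 3399 to 4929 CPM in BRM and 1081 to 1820.2 CPM in Double (−1.59 ± 0.32, adjusted p = 0.003204).

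The effect of BRG1 depletion in BRM-depleted cells was next set beside its effect with BRM present, BRG1 against NS. The comparisons share no library. In BRG1 against NS 1826 genes (12.5%) were called higher and 1458 (9.97%) lower. The genes called higher in both numbered 880, which is 64.6% of the higher calls in Double against BRM and 48.2% of those in BRG1 against NS. Those called lower in both numbered 717 (50.4% and 49.2%). Of genes called in Double against BRM, the sign was the same in BRG1 against NS for 95.2% of the higher and 90.4% of the lower ones, beside 73.8% of all genes tested. Across the 14621 genes the fold changes correlated with Pearson's r of 0.67 and Spearman's rho of 0.65. Genes are not independent replicates, and libraries of the same number may share preparation, so no p is given. The Double against BRM fold changes within libraries 1 and 2 and within 3 and 4 correlated at r = 0.69. That value rests on fewer libraries per fit and on sets that differ, so it is not a ceiling for the r of 0.67.

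Genes that rose both with and without BRM included AKAP12, a scaffold for protein kinase A (chromosome 6, 151239999 to 151358557, plus strand), at 64.1, 81.7 and 57.5 CPM in the BRM libraries and 1727, 1393, 1435 and 1405 CPM in the Double libraries (4.46 ± 0.29, adjusted p = 1.16e-06), beside 93.2 ± 27.95 CPM in NS and 1386 ± 275 CPM in BRG1 (3.89 ± 0.25, adjusted p = 5.56e-07). The Double libraries and the BRG1 mean were high, and the BRM libraries and the NS mean low. FERMT1, a kindlin that activates integrins, ranged over 29.3 to 37.2 CPM in BRM and 265 to 489 CPM in Double (3.31 ± 0.28, adjusted p = 4.49e-06), with 3.04 in BRG1 against NS. PITPNC1, a lipid transfer protein, ranged over 6.04 to 9.1 CPM in BRM and 42.6 to 68.97 CPM in Double (2.69 ± 0.22, adjusted p = 4.01e-06), with 2.98. MGAT5B, a glycan-branching enzyme, ranged over 0.725 to 1.52 CPM in BRM and 12.6 to 22.5 CPM in Double (3.91 ± 0.30, adjusted p = 3.55e-06), with 3.76. Genes that fell in both included ALDH1A1, a retinal dehydrogenase (chromosome 9, 72900662 to 73080442, minus strand), at 1314, 1661 and 1080.3 CPM in the BRM libraries and 185, 187, 176 and 168 CPM in the Double libraries (−2.92 ± 0.24, adjusted p = 4.39e-06), beside 505 ± 178 CPM in NS and 101 ± 3.95 CPM in BRG1 (−2.32 ± 0.23, adjusted p = 1.38e-05). RARRES2, which encodes chemerin, ranged over 68.5 to 129 CPM in BRM and 8.91 to 14.9 CPM in Double (−3.03 ± 0.27, adjusted p = 6.98e-06), with −2.92. AZGP1, a lipid-mobilising plasma protein, ranged over 9.27 to 11.5 CPM in BRM and 1.48 to 2.002 CPM in Double (−2.502 ± 0.21, adjusted p = 4.49e-06), with −2.94. PHYHIPL ranged over 88.9 to 106 CPM in BRM and 22.5 to 27.2 CPM in Double (−1.96 ± 0.13, adjusted p = 1.39e-06), with −1.48. None of these genes had a called interaction.

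**Figure D3:**
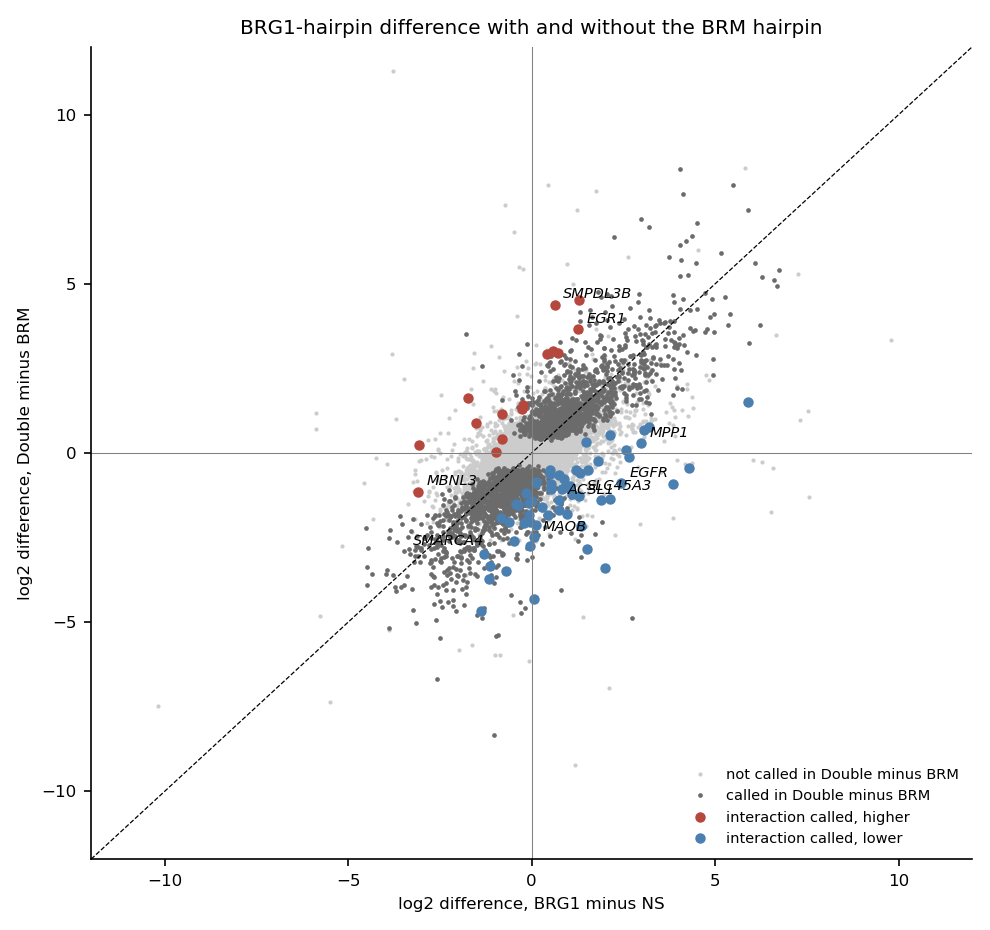
Each point is a gene tested: log2(BRG1/NS) on the horizontal axis and log2(Double/BRM) on the vertical axis, with genes that have a called interaction in colour. The fold changes correlate across the 14621 genes (Pearson's r = 0.67), and the 58 genes with a lower interaction lie below it.

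The interaction, (Double − BRM) − (BRG1 − NS) on the log2 scale, tests whether the effect of the BRG1 hairpin differed with and without the BRM hairpin. If single-hairpin cells received no control virus, a second virus entered Double alone, and this cannot be told apart from a dependence on BRM. All Double libraries also held more SMARCA4 than the BRG1 mean, and the part of this in the interaction was not tested. It was called for 73 genes, 15 higher (0.103%) and 58 lower (0.397%), with 1742 genes at an unadjusted p under 0.05. This count depended on single libraries and on the fit. It was 185 (79 higher and 106 lower) without BRM 1 and 38 without BRM 2. It was 40 to 48 without Double 1, Double 2, NS 3, NS 4 or any single BRG1 library, and 449 with DESeq2. The higher calls were 30 without BRM 3 and the lower calls 34 without NS 2. Of the 73, 70 were called within libraries 1 and 2 in the same direction, and fewer within libraries 3 and 4, where BRM has 1 library. Both sets are part of the main fit, so neither is separate support. Among the 58 with a lower interaction, 33 were called higher by BRG1 depletion with BRM present and 43 were called lower by it with BRM depleted, and 18 had both. Among the 15 with a higher interaction, 11 were called higher in Double against BRM and 7 were called lower in BRG1 against NS, 3 of them both.

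MPP1, a membrane scaffold of the MAGUK family (chromosome X, 154778684 to 154821007, minus strand), had the smallest interaction p. It stood at 34.7, 39.3 and 38.4 CPM in the BRM libraries and 49.1, 44.2, 47.3 and 42.9 CPM in the Double libraries, and was 10.3 ± 1.26 CPM in NS and 80.97 ± 6.94 CPM in BRG1. BRG1 depletion raised it with BRM present, and with BRM depleted, where the BRM libraries lay above NS, the change was not called. The change was 0.29 ± 0.14, adjusted p = 0.158 with BRM depleted and 2.98 ± 0.14, adjusted p = 2.15e-08 with BRM present (interaction −2.69 ± 0.19, adjusted p = 7.55e-06). MAOB, a monoamine oxidase (chromosome X, 43766611 to 43882447, minus strand), stood at 117, 170.1 and 181 CPM in the BRM libraries and 22.8, 23.2, 31.5 and 33.2 CPM in the Double libraries, and was 45.5 ± 5.98 CPM in NS and 47.5 ± 6.38 CPM in BRG1. It fell with BRM depleted, and the change with BRM present was not called. MAOB changed by −2.49 ± 0.20, adjusted p = 3.55e-06 with BRM depleted and 0.06 ± 0.18, adjusted p = 0.854 with BRM present (interaction −2.56 ± 0.27, adjusted p = 0.000588). RBM47, an RNA-binding protein of epithelia, ranged over 12.9 to 22.9 CPM in BRM and 3.72 to 4.18 CPM in Double, beside 7.43 ± 0.811 CPM in NS and 8.13 ± 0.997 CPM in BRG1. The fold change was −2.13 ± 0.20, adjusted p = 1.10e-05 with BRM depleted and 0.13 ± 0.19, adjusted p = 0.691 with BRM present (interaction −2.26 ± 0.28, adjusted p = 0.00175). EGFR, the EGF receptor (chromosome 7, 55019021 to 55211628, plus strand), stood at 109, 178 and 117 CPM in the BRM libraries and 68.2, 60.03, 90.9 and 72.6 CPM in the Double libraries, and was 39.96 ± 10.2 CPM in NS and 218 ± 84 CPM in BRG1. The change was −0.88 ± 0.29, adjusted p = 0.04403 with BRM depleted and 2.45 ± 0.28, adjusted p = 4.22e-05 with BRM present (interaction −3.33 ± 0.40, adjusted p = 0.00175). Of these 4 genes only EGFR was called in opposite directions, with the losses given above for its fall.

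Several genes rose with BRG1 depletion when BRM was present and fell when it was depleted. ACSL1, which activates long-chain fatty acids (chromosome 4, 184755595 to 184826818, minus strand), stood at 107, 141 and 111 CPM in the BRM libraries and 43.8, 41.4, 55.2 and 40.5 CPM in the Double libraries, and was 54.2 ± 8.22 CPM in NS and 91.8 ± 11.8 CPM in BRG1. ACSL1 changed by −1.400 ± 0.17, adjusted p = 7.60e-05 with BRM depleted and 0.76 ± 0.16, adjusted p = 0.00349 with BRM present (interaction −2.16 ± 0.24, adjusted p = 0.000729). SLC45A3, a sugar transporter (chromosome 1, 205657851 to 205680459, minus strand), stood at 27.6, 37.7 and 31.6 CPM in the BRM libraries and 12.1, 11.5, 14.4 and 15.6 CPM in the Double libraries, and was 6.05 ± 0.778 CPM in NS and 14.7 ± 0.415 CPM in BRG1. The fold change was −1.27 ± 0.16, adjusted p = 9.93e-05 with BRM depleted and 1.28 ± 0.16, adjusted p = 5.83e-05 with BRM present (interaction −2.55 ± 0.23, adjusted p = 9.52e-05). At both the Double libraries were below all BRM libraries, and the BRM libraries were above the NS mean. The other genes of this pattern named by the rule were COBL, an actin nucleator (−0.97 and 0.94), DAB2, an endocytic adaptor (−1.22 and 1.101), and PLEK2, a pleckstrin (−2.85 and 1.51), with the BRM-depleted value first. In all, 21 genes were called lower in Double against BRM and higher in BRG1 against NS.

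Genes with a higher interaction were fewer. SMPDL3B, a lipid-raft phosphodiesterase (chromosome 1, 27934993 to 27959157, plus strand), stood at 0.725, 0.80 and 0.692 CPM in the BRM libraries and 16.02, 14.8, 9.87 and 21.6 CPM in the Double libraries, and was 2.52 ± 0.913 CPM in NS and 3.93 ± 1.53 CPM in BRG1. The BRM libraries were the lowest and the Double libraries the highest. The change was 4.38 ± 0.44, adjusted p = 1.39e-05 with BRM depleted and 0.64 ± 0.34, adjusted p = 0.202 with BRM present (interaction 3.75 ± 0.53, adjusted p = 0.00444). TNFAIP3, the NF-kB inhibitor A20 (chromosome 6, 137867188 to 137883312, plus strand), stood at 12.01, 11.1 and 12.2 CPM in the BRM libraries and 27.1, 24.6, 25.1 and 26.9 CPM in the Double libraries, and was 29.98 ± 11.1 CPM in NS and 17.02 ± 2.52 CPM in BRG1. TNFAIP3 changed by 1.14 ± 0.24, adjusted p = 0.00408 with BRM depleted and −0.82 ± 0.22, adjusted p = 0.0135 with BRM present (interaction 1.96 ± 0.32, adjusted p = 0.0124). MBNL3, a muscleblind splicing factor (chromosome X, 132369317 to 132489968, minus strand), fell in both settings, and less with BRM depleted. It stood at 235, 116 and 143 CPM in the BRM libraries and 82.97, 79.3, 64.6 and 73.1 CPM in the Double libraries, beside 453 ± 36.6 CPM in NS and 53.1 ± 5.41 CPM in BRG1. The fold change was −1.14 ± 0.21, adjusted p = 0.00131 with BRM depleted and −3.09 ± 0.21, adjusted p = 5.56e-07 with BRM present (interaction 1.96 ± 0.29, adjusted p = 0.00519). EGR1, described above with the immediate early genes, changed by 3.65 and 1.27 (interaction 2.39 ± 0.41, adjusted p = 0.0158), and BIRC3 by 4.52 and 1.28 (interaction 3.24 ± 0.54, adjusted p = 0.0124). The 3 genes called higher in Double against BRM and lower in BRG1 against NS were TNFAIP3, FZD4, a Wnt receptor (0.89 and −1.51, interaction 2.404 ± 0.38, adjusted p = 0.00846), and CRABP2, a retinoic acid carrier (1.62 and −1.74, interaction 3.36 ± 0.67, adjusted p = 0.0413). The interaction call was lost on omission of a library for TNFAIP3 without BRM 2 (adjusted p = 0.0522) and EGR1 without BRM 2 (adjusted p = 0.0601). The interaction call of CRABP2 was lost in 14 of the 15 omissions. With 1 library left out, the call was lost for FZD4 without BRM 1, Double 1, BRM 2, Double 2 or BRM 3 (adjusted p = 0.0506 to 0.102) and CRABP2 without BRM 1, Double 2, BRM 3 or Double 3 (adjusted p = 0.0648 to 0.114).

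**Figure D4:**
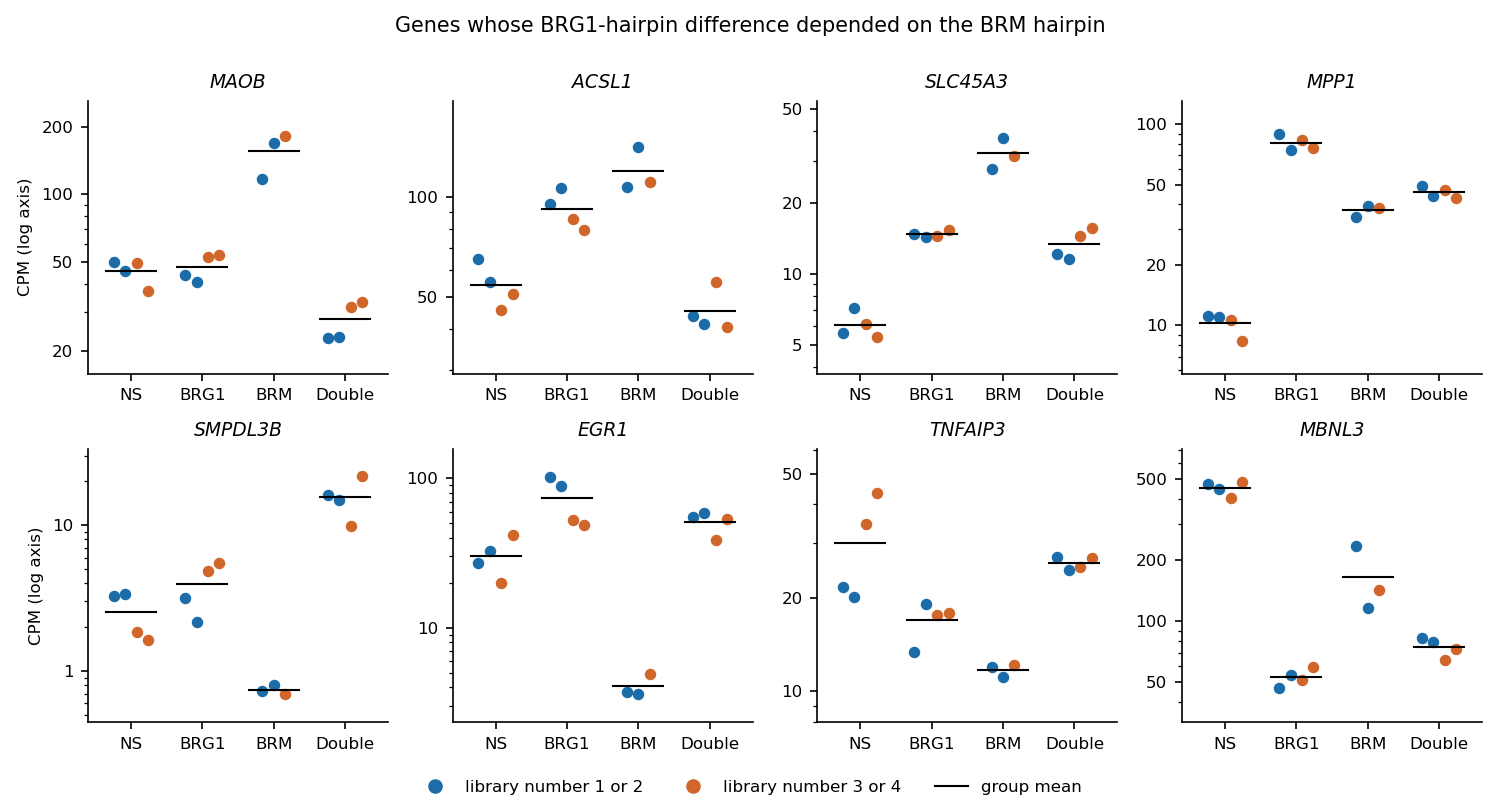
CPM (logarithmic axis) in every library of the 4 groups for MAOB, ACSL1, SLC45A3, MPP1, SMPDL3B, EGR1, TNFAIP3 and MBNL3; blue points are libraries 1 and 2, orange points libraries 3 and 4, and the line is the group mean. At ACSL1 and SLC45A3 BRG1 lies above NS while Double lies below BRM, and at TNFAIP3 the order is the opposite.

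Exons of SMARCA2, ITGA5, ADORA1, PRSS22, ZNF804A, UPK1A, FETUB, AATK, JUNB, DUSP6, LIF, EGFR, PLAU, LRP1, ITGB1, ITGB2, CTGF, LTBP2, ZEB1, LOX, A2M, MASP1, F11, TFPI2, APOA4, APOA1, FTH1, EHHADH, ECI2, HMGCS1, KYNU, BHMT, GNMT, PYGL, HK1, HAS3, CCND2, PLK3, CANX, MX1, SLC1A2, BRD9, SMARCB1, ARID1A, PBRM1, PHF10, PHC1, PHF1, HOXA7, SYP, MGAT5B, PHYHIPL, RBM47, SMPDL3B, TNFAIP3 and FZD4 overlap an annotated gene on the opposite strand. The strand setting of the counting is not given in the sources used here, so reads from such partners cannot be told apart and these values are uncertain to that extent.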

How the data were processed

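RNA-seq of transduced HepG2 cells was analysed from a deposited table of estimated counts per gene. The authors made these counts with kallisto on GRCh38, per the submitters' processing notes, which also name DESeq2. No version or strand setting was found in the labels or headers. The estimated counts were rounded to whole numbers and tested with edgeR 4.0.16 (R 4.3.3): filterByExpr on the group, TMM, robust quasi-likelihood fit of group means over all 15 libraries, Benjamini-Hochberg adjustment over 14621 genes. The authors' own comparison tables were not used. Contrasts were Double minus BRM, BRG1 minus NS and their difference. The 7 libraries held 12550787 to 27187991 counts. Alternatives were DESeq2 1.42.0, other normalizations, no filter, the 7 libraries alone, a block, the library sets and leave-one-out.

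The contrast, the 49 gene lists and the rule for named genes were chosen with earlier results of these data known. Named were SMARCA4 and SMARCA2, the SWI/SNF subunits, the 15 largest called changes each way (mean of at least 2 CPM, no overlap, same sign in both sets), up to 4 called members per list by adjusted p, 6 interaction genes each way, and 5 genes of each shared or opposite pattern. Of 35012 symbols, 33662 matched GENCODE 29. Promoters are from RefSeq (GRCh38.p14). Some genes that the rule named are not reported here.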

Additional observations from a re-analysis of the deposited data

Results flagged for a closer look

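Within the 4 Double libraries, the level of 20 of the 234 named genes had 1 library whose gap to the nearest other exceeded the 95% critical value of Dixon's test. Chance alone flags about 1 in 20 groups, so a good part of these flags may be chance. Double 4 was the highest library for APOA1 (1851 CPM against a median of 975 CPM), APOA5 (4.75 CPM against a median of 2.46 CPM), DPF1 (6.75 CPM against a median of 3.59 CPM), GSTA1 (21.9 CPM against a median of 16.4 CPM), HNF4A (428 CPM against a median of 256 CPM), PGLYRP2 (1.09 CPM against a median of 0.295 CPM), SYP (10.2 CPM against a median of 7.003 CPM), TFR2 (17.7 CPM against a median of 7.604 CPM) and TMPRSS6 (4.12 CPM against a median of 1.73 CPM). Double 4 was the lowest library for DDX58 (20.8 CPM against a median of 32.1 CPM). Double 3 was the highest library for BMP6 (39.7 CPM against a median of 22.96 CPM), LYVE1 (30.4 CPM against a median of 14.2 CPM) and PITPNC1 (68.97 CPM against a median of 45.3 CPM). Double 3 was the lowest library for AFP (799 CPM against a median of 1197 CPM), ALB (1384 CPM against a median of 2444 CPM), BHMT (1.62 CPM against a median of 2.6 CPM), C1S (12.8 CPM against a median of 21.1 CPM) and CANX (417 CPM against a median of 512 CPM). Double 1 was the highest library for AKAP12 (1727 CPM against a median of 1419.6 CPM). Double 1 was the lowest library for AZGP1 (1.48 CPM against a median of 1.95 CPM). The groups still did not overlap at ALB, AFP, GSTA1 or BMP6, and HNF4A overlapped with BRM. Double 4 stood apart most often, at 10 genes, and its mitochondrially encoded share was the lowest of the 7 libraries (1.79%). The part of that share in these values was not tested.

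The effect of BRG1 depletion differed between BRM-depleted and BRM-intact cells at 25 named genes by the interaction test (edgeR, adjusted p under 0.05), given here as the log2 difference of the effects with BRM depleted minus BRM present. It was negative at ACSL1 (−2.16), COBL (−1.903), DAB2 (−2.32), ECI2 (−1.16), EGFR (−3.33), FETUB (−3.28), KYNU (−1.08), LPIN1 (−1.43), MAOB (−2.56), MASP1 (−2.57), MPP1 (−2.69), PLEK2 (−4.36), PLK2 (−1.87), RBM47 (−2.26), SLC45A3 (−2.55), SLC51A (−2.72) and STUM (−4.37). It was positive at BIRC3 (3.24), CRABP2 (3.36), DUSP6 (2.44), EGR1 (2.39), FZD4 (2.404), MBNL3 (1.96), SMPDL3B (3.75) and TNFAIP3 (1.96). LPIN1, a phosphatidate phosphatase of fat synthesis, stood at 59.6, 42.8 and 65.8 CPM in the BRM libraries and 23.2, 20.03, 23.3 and 16.8 CPM in the Double libraries, beside 23.02 ± 3.83 CPM in NS and 23.01 ± 2.17 CPM in BRG1. SLC51A, a subunit of the basolateral bile acid exporter, stood at 12.01, 14.7 and 15.6 CPM in the BRM libraries and 2.13, 2.43, 1.86 and 1.95 CPM in the Double libraries, beside 2.92 ± 1.24 CPM in NS and 2.85 ± 0.896 CPM in BRG1. PLK2, a stress-induced kinase, stood at 36.2, 40.4 and 31.9 CPM in the BRM libraries and 15.5, 18.3, 20.7 and 15.2 CPM in the Double libraries, beside 17.6 ± 0.914 CPM in NS and 30.96 ± 11.3 CPM in BRG1. Leaving out 1 library ended the interaction call of DUSP6 without BRM 2, NS 3 or BRG1 3 (adjusted p = 0.0512 to 0.0766), ECI2 without NS 1, BRG1 1, Double 1, NS 2, BRG1 2, BRM 2, Double 2, NS 3, BRG1 3, Double 3, NS 4, BRG1 4 or Double 4 (adjusted p = 0.0802 to 0.196), KYNU without NS 1, BRG1 1, Double 1, NS 2, BRG1 2, BRM 2, Double 2, NS 3, BRG1 3, Double 3, BRG1 4 or Double 4 (adjusted p = 0.0593 to 0.138), LPIN1 without NS 2, BRG1 2, Double 2, BRG1 3, BRM 3 or BRG1 4 (adjusted p = 0.0511 to 0.0729), MASP1 without NS 1, BRG1 1, Double 1, NS 2, BRG1 2, BRM 2, Double 2, NS 3, BRG1 3, BRM 3, Double 3 or BRG1 4 (adjusted p = 0.0615 to 0.175) and PLK2 without Double 1 or BRM 2 (adjusted p = 0.0574 to 0.0657).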

How the results depend on the processing

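The counts of genes called in Double against BRM (2787), in BRG1 against NS (3284) and in the interaction (73) were recomputed under each alternative. For Double against BRM they were 3466 with DESeq2, 2805 and 2702 with RLE and upper-quartile factors, 2358 with no filter on low counts and 2120 in a fit of the 7 libraries alone. A term for the library set called 5718 (2762 higher, 2956 lower), libraries 1 and 2 alone 4507 (2130, 2377) and libraries 3 and 4 alone, with no BRM replicate, 3407. For BRG1 against NS the set term called 5720 (3064, 2656) and libraries 1 and 2 alone 5610 (2966, 2644). For the interaction, DESeq2 called 449 (166, 283), the set term 1061 (354, 707), libraries 1 and 2 alone 1595 (763, 832) and libraries 3 and 4 alone 246 (64, 182), and upper-quartile factors gave 24 higher calls. The cause of these differences was not tested.

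Same-numbered Double and BRM libraries deviated from their group means with correlations of 0.589, 0.0133 and 0.365, so the numbers were not taken as pairs. Double 1 and Double 2 both correlated best with BRM 1, and Double 3 with BRM 3. A fit with a replicate block called 5302 genes (2612 higher, 2690 lower) in Double against BRM, 5318 (2856, 2462) in BRG1 against NS and 633 (196, 437) in the interaction. Of the main calls in Double against BRM and in the interaction, 2783 of 2787 and 73 of 73 were kept. The block fit uses the same libraries and calls more genes, so this is not separate support.

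With 1 library left out, Double against BRM called 1955 to 2787 genes (997 to 1406 higher, 958 to 1399 lower), BRG1 against NS 2404 to 3175 (1256 to 1811, 1148 to 1591) and the interaction 38 to 185 (9 to 79, 28 to 106). Both ends of the interaction range come from BRM libraries, 185 without BRM 1 and 38 without BRM 2. Direction was not constant at every named gene that was not called. SERPINA1, with an uncalled decrease in the main fit, had a higher mean level in Double than in BRM within libraries 1 and 2. Calls were lost at 12 with no filter, 14 in the 7-library fit, 3 and 11 within the sets, and 8 to 22 with 1 library left out. Genes with few counts are limited by depth, and with 3 libraries BRM sets the precision.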
